A study of Homo sapiens with 8 samples.

Results

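The matrix metalloproteinases (MMPs), their tissue inhibitors (TIMPs) and the ADAMTS proteinases were followed in nickel-treated human airway cells. A gene was taken as a member where its symbol was MMP and a number, TIMP1 to TIMP4, or ADAMTS and a number. This gave 45 members (22 MMP, 4 TIMP and 19 ADAMTS genes) of the 25411 genes listed.

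RNA-Seq read counts came from BEAS-2B, a bronchial epithelial line of human origin that was immortalised, in 8 libraries that form 4 groups of 2. UT cells were untreated, and Ni-E cells were collected after 6 weeks in 100 µM NiCl2, a soluble nickel salt. Ni-W cells had the same exposure and were then grown as a colony from a single cell, free of nickel, for more than 6 months. They are 1 population picked at random among such colonies, so traits of that colony and effects of the exposure cannot be told apart. HCl3 cells had a treatment label identical to that of Ni-W, exposure and single-cell cloning included, and their labels gave neither the time without nickel nor how they relate to Ni-W. The labels place both Ni-E libraries in experiment 2 and the HCl3 libraries in experiments 3 and 4, and number no experiment for UT and Ni-W, so that experiment and group cannot be told apart. The study's methods speak of biological replicates, but nothing in the labels ties a library to a separate culture. P values rest on the spread between these libraries alone, estimated in part across genes.

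MMPs are zinc-dependent enzymes that cut collagens and other proteins of the extracellular matrix, and most are made as inactive precursors that another proteinase must cleave. TIMPs bind the active site of MMPs and hold them inactive, and TIMP3 also inhibits several ADAMTS enzymes. ADAMTS proteinases are secreted relatives with thrombospondin repeats that process procollagens, cleave large proteoglycans such as versican or take part in building microfibrils. In the airway these families are known for their part in matrix turnover, scarring and the movement of cells through the basement membrane.

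The libraries held between 26383920 and 45692298 counted reads. Among the epithelial markers, the keratin genes KRT7, KRT8 and KRT18 were abundant in all 8 libraries (between 144 and 481 RPKM, a read density scaled to gene length and library size), EPCAM lay between 0.95 and 1.79, KRT19 did not exceed 0.02 in UT and Ni-E and lay between 0.53 and 0.78 in Ni-W and HCl3, and CDH1, which encodes E-cadherin and defines epithelial junctions, was at or below 0.11. The summed RPKM of these 6 genes was 602 and 636 for UT, 579 and 794 for Ni-E, between 947 and 972 for Ni-W and between 934 and 996 for HCl3, so that both washed-out groups lay above UT and Ni-E. Of the 5 fibroblast markers, COL1A1 (178 to 454) and PDGFRB (10.6 to 27.9) were high while DCN was listed at 0, LUM reached 0.91 and COL1A2 2.05. The summed RPKM of these 5 genes was 359 and 413 for UT, 189 and 354 for Ni-E, 243 and 269 for Ni-W and 461 and 484 for HCl3. Both sums moved with the groups, and their part in the results on the members was not tested. Of the leukocyte markers, PTPRC stayed at or below 0.04, CD68 lay between 14.3 and 21.8 and CD14 between 1.06 and 4.15, and the 3 endothelial markers did not exceed 0.10. As in any bulk sample, more RNA per cell cannot be told apart from more cells that make it.

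RefSeq promoter windows (GRCh38.p14, 250 bases before to 50 bases after the start of the gene) were found for 26 of the 45 members. No entry was found for ADAMTS1, ADAMTS4, ADAMTS5, ADAMTS8, ADAMTS9, ADAMTS15, ADAMTS16, MMP1, MMP2, MMP3, MMP9, MMP12, MMP13, MMP16, MMP17, MMP19, MMP25, MMP28 and TIMP2. The 250 bases before the start are printed here for 4 members that changed between groups and for 2 of the silent or nearly silent neighbours of MMP1, so that CpG-rich and AT-rich promoters can be compared. Capitals mark matches, on either strand, to the GC box GGGCGG, the hypoxia response core ACGTG, the AP-1 site TGANTCA and the TATA box TATAAA.
TIMP3: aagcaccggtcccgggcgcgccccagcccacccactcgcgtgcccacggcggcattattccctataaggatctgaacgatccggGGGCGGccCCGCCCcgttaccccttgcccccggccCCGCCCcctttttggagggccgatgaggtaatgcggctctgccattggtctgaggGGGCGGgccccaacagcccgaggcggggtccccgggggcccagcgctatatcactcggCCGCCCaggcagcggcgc
ADAMTS3: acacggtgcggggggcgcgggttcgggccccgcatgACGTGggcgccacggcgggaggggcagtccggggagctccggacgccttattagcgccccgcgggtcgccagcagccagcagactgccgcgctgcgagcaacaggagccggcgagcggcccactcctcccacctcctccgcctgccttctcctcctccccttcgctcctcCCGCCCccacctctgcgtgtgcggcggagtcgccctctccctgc
ADAMTS6: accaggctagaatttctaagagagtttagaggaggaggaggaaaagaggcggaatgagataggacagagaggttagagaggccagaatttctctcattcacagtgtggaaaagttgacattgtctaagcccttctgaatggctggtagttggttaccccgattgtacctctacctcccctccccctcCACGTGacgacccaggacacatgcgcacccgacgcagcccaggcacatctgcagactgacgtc
MMP11: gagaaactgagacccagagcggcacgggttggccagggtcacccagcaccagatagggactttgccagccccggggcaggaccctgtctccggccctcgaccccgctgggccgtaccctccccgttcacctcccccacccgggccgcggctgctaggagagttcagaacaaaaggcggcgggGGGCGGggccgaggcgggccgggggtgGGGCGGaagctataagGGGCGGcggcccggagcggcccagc
MMP7: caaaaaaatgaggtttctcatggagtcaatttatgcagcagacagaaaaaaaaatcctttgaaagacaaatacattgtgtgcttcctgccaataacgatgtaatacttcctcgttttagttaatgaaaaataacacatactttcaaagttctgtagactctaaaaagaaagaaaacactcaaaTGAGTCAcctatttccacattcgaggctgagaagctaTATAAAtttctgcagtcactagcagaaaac
MMP10: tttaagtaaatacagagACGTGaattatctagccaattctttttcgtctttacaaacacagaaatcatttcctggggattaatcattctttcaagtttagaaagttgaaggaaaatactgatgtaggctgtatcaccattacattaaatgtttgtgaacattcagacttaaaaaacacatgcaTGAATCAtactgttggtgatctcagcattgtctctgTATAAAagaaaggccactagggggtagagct
These bases lie in GRCh38.p14 at chr22:32801455-32801704 (TIMP3, plus strand), chr4:72569222-72569471 (ADAMTS3, minus strand), chr5:65481921-65482170 (ADAMTS6, minus strand), chr22:23772599-23772848 (MMP11, plus strand), chr11:102530748-102530997 (MMP7, minus strand) and chr11:102780629-102780878 (MMP10, minus strand).

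The MMP7 and MMP10 promoters each held an AP-1 match at position -67, counted from the start of the gene, and a TATA box at positions -30 and -31. TGANTCA was present in the windows of 4 of the 26 members that had a window (ADAMTS12, MMP7, MMP10 and MMP20) and in 7.71% of all 35093 RefSeq promoter windows. Of the same 26 members, 7 held TATAAA (11.5% of all windows), 18 held GGGCGG (44.9%) and 9 held ACGTG (21.4%). In ADAMTS6 the letters CACGTG hold ACGTG on both strands and count as 2 matches that overlap. A match is only a run of letters in the window and says nothing of whether a factor binds there.

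Of the 45 members, 21 were called in at least 1 of the 6 pairs of groups (9 MMP, 2 TIMP and 10 ADAMTS genes), out of 34 that were tested in some pair. Of all genes tested in some pair, 30.6% were called in at least 1. A member was called where the adjusted P value of DESeq2, over all genes tested, was under 0.05 and the change at least 1.5-fold. Low expression kept many members out: 10 had no read in any library (MMP7, MMP8, MMP13, MMP20, MMP21, MMP26, MMP27, ADAMTS18, ADAMTS19 and ADAMTS20), and MMP10 did not exceed 2 reads. A count of 0 allows up to 3 reads, between 6.57e-06% and 1.14e-05% of a library, so these genes were not detectable at this depth. A further 13 members were read but not called in any pair (MMP3, MMP12, MMP19, MMP25, MMP28, TIMP2, TIMP4, ADAMTS4, ADAMTS5, ADAMTS8, ADAMTS10, ADAMTS13 and ADAMTS17). By RPKM in UT, TIMP2 (137 and 146) and TIMP1 (99.0 and 93.5) stood highest, followed by ADAMTS1 (25.4 and 32.3), TIMP3 (14.5 and 16.6) and MMP14 (16.0 and 15.1). The last pair of genes had equal means (15.6 ± 1.47 and 15.6 ± 0.693, SD, n = 2), and their order is within the spread of the replicates.

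Ni-E cells differed little from UT cells in these families. MMP24 rose, and 3 ADAMTS genes fell (ADAMTS3, ADAMTS6 and ADAMTS15), among 29 members tested. Over all genes, 3.75% were called higher and 2.05% lower in this pair, against 3.45% and 10.3% of the members tested. The median log2 fold change of the members was 0.01, beside -0.00 over all genes.

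ADAMTS6, a proteinase linked to microfibrils (hg19 chr5:64444563-64777704, minus strand), showed the clearest change during exposure. Its RPKM was 1.17 and 1.46 for UT, 0.41 and 0.33 for Ni-E, 1.04 and 1.15 for Ni-W and 1.33 and 1.02 for HCl3. Only the Ni-E libraries were low, and neither overlapped any other library. The log2 fold change against UT was -1.88 ± 0.26 (SE; adjusted P = 8.88e-11), and it was called with any 1 of the 4 libraries left out. In Ni-W and HCl3 the change against UT was -0.30 ± 0.21 (95% interval -0.71 to 0.10) and -0.22 ± 0.21 (-0.63 to 0.19), which did not pass the test. Directly against Ni-E, ADAMTS6 was higher by 1.56 ± 0.25 in Ni-W (adjusted P = 1.15e-08) and by 1.64 ± 0.26 in HCl3 (adjusted P = 1.93e-09).

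ADAMTS3, which removes the amino-terminal propeptide of procollagens and activates VEGF-C (hg19 chr4:73146686-73434516, minus strand), was low in Ni-E and high after wash-out. The libraries read 0.42 and 0.44 RPKM for UT, 0.11 and 0.13 for Ni-E, 1.10 and 1.17 for Ni-W and 0.95 and 0.85 for HCl3. No 2 groups overlapped, and the order was Ni-E, UT, HCl3, Ni-W. Relative to UT it changed by -1.90 ± 0.45 on the log2 scale in Ni-E (adjusted P = 0.000679), 1.36 ± 0.26 in Ni-W (adjusted P = 3.17e-06) and 1.00 ± 0.27 in HCl3 (adjusted P = 0.00135). Between Ni-W and Ni-E it was 3.24 ± 0.33 (adjusted P = 1.43e-20), and between HCl3 and Ni-E 2.89 ± 0.35 (adjusted P = 8.41e-15). HCl3 and Ni-W, its nearest neighbours in level, differed by -0.35 ± 0.20 (adjusted P = 0.273). The call of Ni-E against UT was lost without UT replicate 1, UT replicate 2 or Ni-E replicate 1 (adjusted P up to 0.152), and that of HCl3 against UT without either HCl3 library (up to 0.224).

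ADAMTS15, a proteoglycan-cleaving member (hg19 chr11:130318869-130346539, plus strand), followed the same order of groups with more spread. It was read at 3.52 and 2.96 RPKM for UT, 1.48 and 2.74 for Ni-E, 8.02 and 6.90 for Ni-W and 6.58 and 7.22 for HCl3. The Ni-W and HCl3 libraries all lay above the others, whereas the upper Ni-E library came close to the lower UT library and the Ni-W and HCl3 libraries overlapped. The fall in Ni-E was -0.68 ± 0.24 (adjusted P = 0.0385), and this call was lost without UT replicate 1, UT replicate 2 or Ni-E replicate 1 (adjusted P up to 0.79). The rise was 1.17 ± 0.15 in Ni-W (adjusted P = 9.13e-14) and 1.03 ± 0.14 in HCl3 (adjusted P = 1.84e-12) against UT, and both were called without any 1 library.

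MMP24, a membrane-bound MMP (hg19 chr20:33814539-33864804, plus strand), was the member called higher in Ni-E. Its RPKM was 1.07 and 1.12 for UT, 2.19 and 2.28 for Ni-E, 1.80 and 1.83 for Ni-W and 3.15 and 3.04 for HCl3. All 6 nickel-treated libraries lay above UT, and the groups did not overlap. Against UT, MMP24 rose by 0.98 ± 0.22 in Ni-E (adjusted P = 0.000435), by 0.70 ± 0.22 in Ni-W (adjusted P = 0.00818) and by 1.45 ± 0.19 in HCl3 (adjusted P = 1.09e-12). The HCl3 call held without any 1 library. That of Ni-W was lost without each library in turn (adjusted P up to 0.236), and that of Ni-E without UT replicate 1 or either Ni-E library (up to 0.116). MMP24-AS1 overlaps MMP24 on the other strand and held 847 to 1895 reads a library. Whether counting used strand was not stated, so reads of this pair cannot be told apart.

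Without UT replicate 1, UT replicate 2 or Ni-E replicate 1, fewer members than these 4 were called between Ni-E and UT. Fewer of all genes were called there as well. The edgeR quasi-likelihood test called 3, without ADAMTS15, and limma on log2(RPKM + 1) or log2(RPKM + 0.1) called 0 (2 and 5 members past 1.5-fold at an unadjusted P value under 0.05). Over all genes, edgeR called 1044 of 13566 tested, and each limma setting called 0 of 17794. ADAMTS1 and MMP14 had adjusted P values under 0.05 in this pair, but their changes (-0.52 ± 0.15 and 0.35 ± 0.12) were below 1.5-fold.

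**Figure D1:**
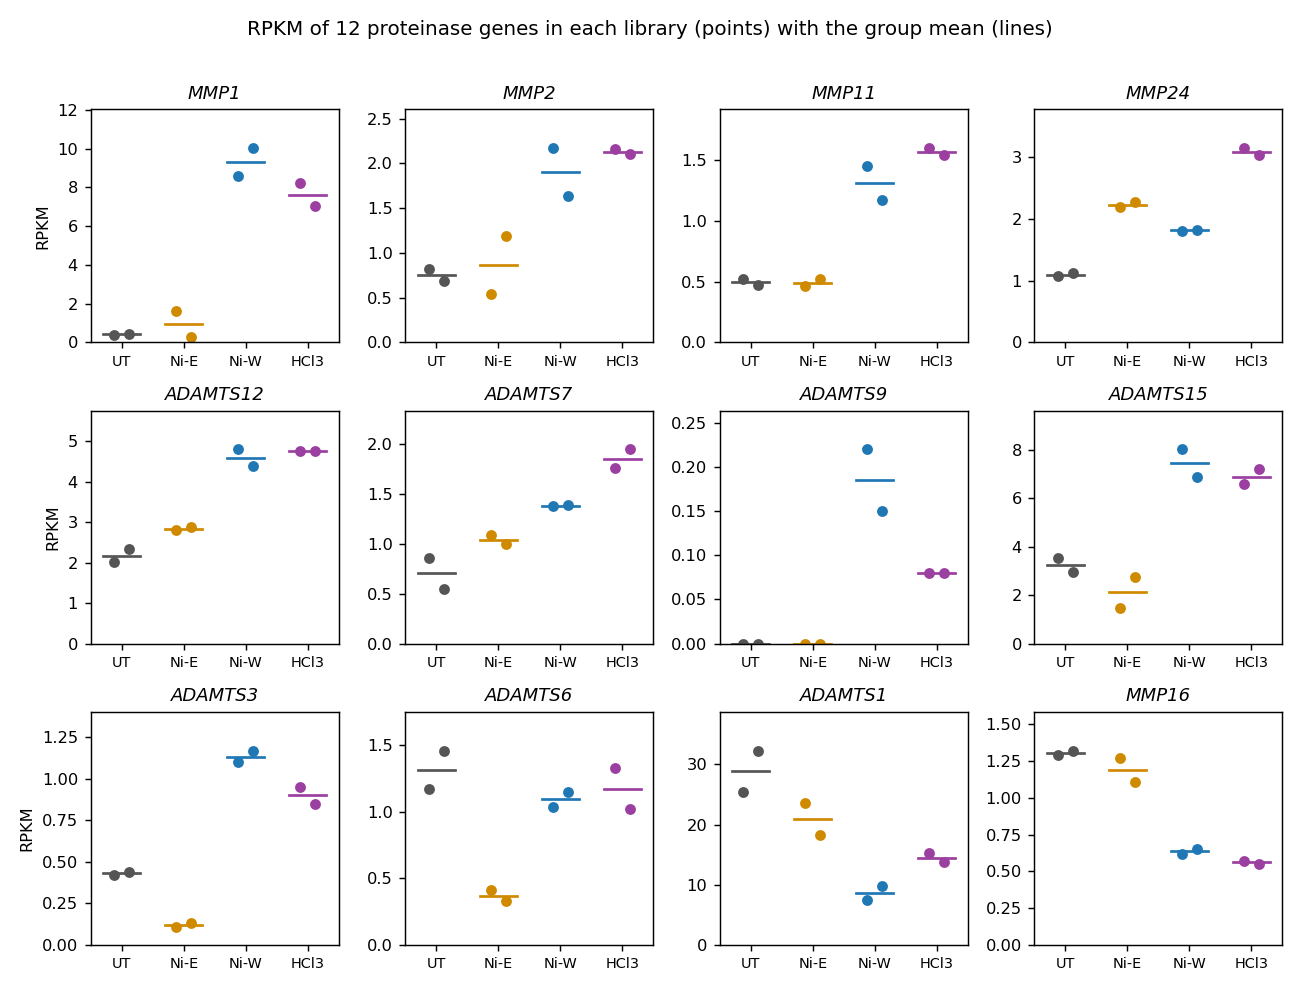
RPKM (vertical axes, each from 0) of 12 proteinase genes in UT, Ni-E, Ni-W and HCl3 cells, with a point for each library and a line at the mean of the 2 libraries of a group. MMP1 lies at 1.64 or below in UT and Ni-E and between 7.06 and 10.0 for Ni-W and HCl3, while ADAMTS6 is low only in Ni-E (0.41 and 0.33).

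After wash-out, many more members differed from UT, mostly upward. In Ni-W, 14 of 34 members tested were called (10 higher and 4 lower), beside 10.9% of all genes called higher and 4.83% lower. In HCl3, 13 of 33 were called (11 higher and 2 lower), beside 11.1% and 3.74%. Of the members tested, 29.4% and 33.3% were thus called higher. The median log2 fold change of the members was 0.70 in Ni-W and 0.76 in HCl3, beside 0.01 over all genes in both. Both comparisons use the same UT libraries and are given side by side. A gene read only in the washed-out cells entered the test through the group in which it is high, which these counts and medians do not correct for. Without either Ni-W library fewer members were called in Ni-W, and fewer of all genes were called as well.

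**Figure D2:**
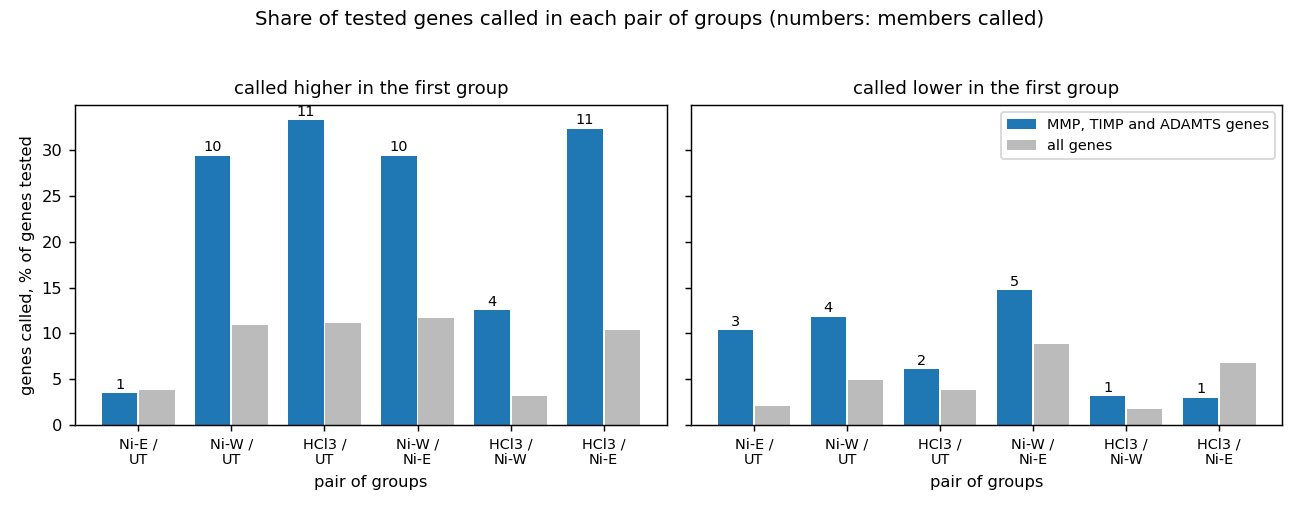
Percent of tested genes called higher (left) or lower (right) in the first group of each pair, for the MMP, TIMP and ADAMTS genes (blue) and for all genes (grey), with the number of members called above the blue bars. The blue bars reach 29.4% and 33.3% for genes called higher in Ni-W and HCl3 against UT, where the grey bars stand at 10.9% and 11.1%.

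Among the enzymes that cut fibrillar collagen, MMP1 (interstitial collagenase, hg19 chr11:102660641-102668966, minus strand) rose most. The libraries held 32 and 27 reads for UT, 123 and 19 for Ni-E, 884 and 717 for Ni-W and 684 and 608 for HCl3. In RPKM these were 0.37 and 0.45, 1.64 and 0.26, 8.59 and 10.0, and 8.21 and 7.06. All 4 washed-out libraries stood above all UT and Ni-E libraries, and the Ni-E libraries lay on either side of UT. The log2 fold change against UT was 4.48 ± 0.27 in Ni-W (22.3-fold, adjusted P = 4.66e-60) and 4.16 ± 0.27 in HCl3 (17.9-fold, adjusted P = 2.48e-51), each called without any 1 library. In Ni-E it was 1.10 ± 0.67 and did not pass the test (adjusted P = 0.333, interval -0.22 to 2.41). Against Ni-E the rise was 3.35 ± 1.16 in Ni-W (adjusted P = 0.0122) and 3.03 ± 1.16 in HCl3 (adjusted P = 0.0259), but the first call was lost without either Ni-W library (adjusted P up to 0.212) and the second without either HCl3 library (up to 0.296). HCl3 and Ni-W differed by -0.31 ± 0.15 (adjusted P = 0.146, interval -0.60 to -0.02).

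MMP1 sits in a cluster of 9 MMP genes on the minus strand of 11q22 (hg19 chr11:102391239-102826463), and none of its neighbours was called in any pair. In the order of the cluster these are MMP7, MMP20, MMP27, MMP8, MMP10, MMP1, MMP3, MMP12 and MMP13. The collagenases MMP8 and MMP13, the matrilysin MMP7, the enamel proteinase MMP20 and MMP27 had no read. MMP10, a stromelysin whose gene lies next to MMP1, had 2 and 1 reads for Ni-W, 0 and 1 for HCl3 and none in UT and Ni-E. MMP3, the stromelysin on the other side, was read at 0.90 and 0.84 RPKM for UT, 0.68 and 0.19 for Ni-E, 0.58 and 0.74 for Ni-W and 0.65 and 0.67 for HCl3. Its change against UT was -0.44 ± 0.44 in Ni-W and -0.45 ± 0.43 in HCl3, neither past the test. MMP12, the macrophage elastase, had 13 and 4 reads for UT, 6 and 4 for Ni-E, 2 and 0 for Ni-W and 0 and 4 for HCl3, and did not pass the test between Ni-W and UT (adjusted P = 0.135). WTAPP1, a pseudogene on the opposite strand over MMP1 and MMP3, held at most 1 read. Over the 27 non-member genes of the 10 Mb window around MMP1 with a mean normalised count of at least 50, the median log2 fold change was -0.04 in Ni-W and -0.27 in HCl3.

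**Figure D3:**
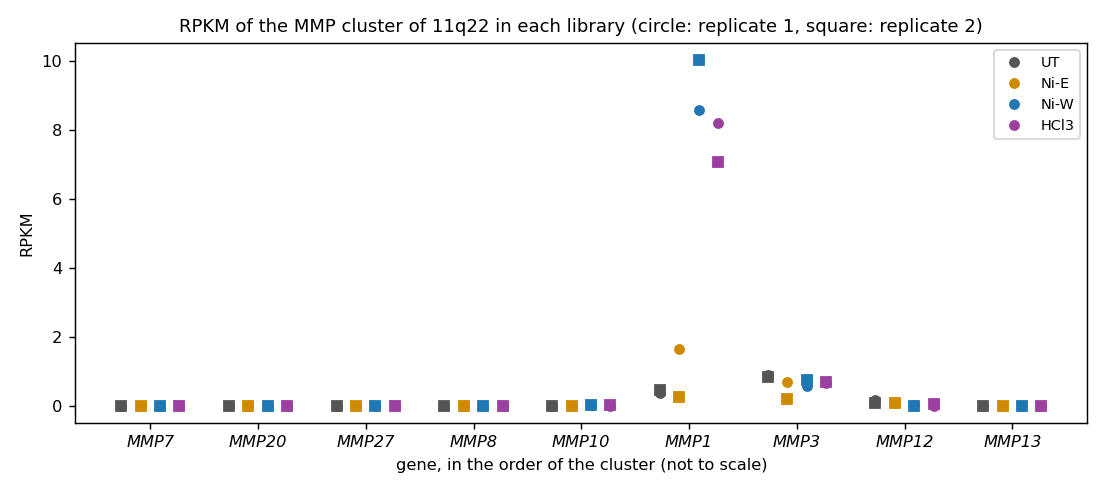
RPKM (vertical axis) of the 9 MMP genes of the 11q22 cluster in the order of the chromosome, not to scale, with circles for replicate 1 and squares for replicate 2 of each group in colour. MMP1 is raised in Ni-W and HCl3 (7.06 to 10.0), its neighbour MMP3 does not exceed 0.90, and 5 of the genes lie at 0 in all 8 libraries.

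The gelatinases, which cut denatured collagen and basement membrane collagen, were low in UT. MMP2 (hg19 chr16:55515474-55540586, plus strand) was read at 0.82 and 0.68 RPKM for UT, 0.54 and 1.19 for Ni-E, 2.17 and 1.63 for Ni-W and 2.16 and 2.10 for HCl3. The 4 washed-out libraries lay above the others, and the Ni-E pair straddled UT. Against UT, MMP2 rose by 1.31 ± 0.28 in Ni-W (adjusted P = 2.52e-05) and by 1.45 ± 0.25 in HCl3 (adjusted P = 1.03e-07). The Ni-W call was lost without Ni-W replicate 1 (adjusted P = 0.121), and the HCl3 call held without any 1 library. MMP9 (hg19 chr20:44637547-44645200, plus strand) had 9 and 3 reads for UT, 3 and 4 for Ni-E, 21 and 27 for Ni-W and 25 and 24 for HCl3. Its rise was called against Ni-E, by 2.70 ± 1.01 in Ni-W (adjusted P = 0.0221) and 2.66 ± 0.99 in HCl3 (adjusted P = 0.0223), and both calls were lost without each library in turn (adjusted P up to 0.477 and 0.342). Against UT the changes of 1.83 ± 0.91 and 1.80 ± 0.88 did not pass the test (adjusted P = 0.118 and 0.109), although edgeR called MMP9 in both groups.

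MMP11 (stromelysin-3, activated inside the cell by furin-type proteinases, hg19 chr22:24115036-24126503, plus strand) had the GC-box promoter printed earlier. Its RPKM was 0.52 and 0.47 for UT, 0.46 and 0.52 for Ni-E, 1.45 and 1.17 for Ni-W and 1.60 and 1.54 for HCl3. UT and Ni-E shared the same range, and the washed-out groups stood above it. The change against UT was 1.37 ± 0.38 in Ni-W (adjusted P = 0.00208) and 1.61 ± 0.35 in HCl3 (adjusted P = 4.7e-05). The Ni-W call was lost without either Ni-W library (adjusted P up to 0.278) and the HCl3 call without either HCl3 library (up to 0.0785).

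The membrane-type MMPs did not move as one. MMP14 (MT1-MMP, which activates pro-MMP2 at the cell surface together with TIMP2, hg19 chr14:23305742-23316808, plus strand) was the most abundant MMP. It was read at 16.0 and 15.1 RPKM for UT, 19.7 and 21.6 for Ni-E, 19.1 and 17.7 for Ni-W and 24.5 and 24.8 for HCl3. The 2 HCl3 libraries were highest, and every treated library lay above UT. In HCl3 it rose by 0.61 ± 0.10 (1.52-fold, adjusted P = 5.61e-08), just past the fold threshold, and by 0.56 without UT replicate 2, which is below it. MMP15 (MT2-MMP, hg19 chr16:58059282-58080804, plus strand) was read at 3.72 and 3.49, 5.56 and 4.52, 4.80 and 4.32, and 5.45 and 6.04 RPKM in the same order. Its rise in HCl3 was 0.62 ± 0.14 (1.53-fold, adjusted P = 0.000114), and the call was lost without UT replicate 2 or HCl3 replicate 2 (adjusted P up to 0.139). Neither gene was called with GC and length trends removed.

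MMP16 (MT3-MMP, hg19 chr8:89049460-89339717, minus strand) fell after wash-out. The RPKM was 1.29 and 1.32 for UT, 1.27 and 1.11 for Ni-E, 0.62 and 0.65 for Ni-W and 0.57 and 0.55 for HCl3. UT and Ni-E lay close together, and all 4 washed-out libraries were below them. The log2 fold change against UT was -1.09 ± 0.23 in Ni-W (adjusted P = 1.67e-05) and -1.28 ± 0.22 in HCl3 (adjusted P = 1.45e-07), and both calls held without any 1 library. In Ni-E it was -0.19 ± 0.22 (interval -0.62 to 0.23). MMP17, a membrane MMP held by a lipid anchor (hg19 chr12:132312941-132336316, plus strand), was read at 0.49 and 0.34 RPKM for UT, 0.75 and 0.72 for Ni-E, 0.37 and 0.25 for Ni-W and 0.57 and 0.66 for HCl3. It was called only between Ni-W and Ni-E (-1.22 ± 0.49, adjusted P = 0.0318), and that call was lost without each library in turn (adjusted P up to 0.365) and with GC and length trends removed. MMP25, the other lipid-anchored member, stayed between 0.22 and 0.33 RPKM, and MMP19, a secreted MMP, between 3.32 and 4.63. TMEM198B overlaps MMP19 on the other strand and held 80 to 264 reads.

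MMP28 (epilysin) had 3 and 0 reads for UT, 0 and 2 for Ni-E, 14 and 13 for Ni-W and 11 and 16 for HCl3. The washed-out libraries all held more reads, with a ratio of counts against UT of 7.29 in Ni-W (95% counting interval 2.24 to 37.6) and 7.39 in HCl3 (2.28 to 38.1). DESeq2 did not call it (adjusted P = 0.104 and 0.101). The edgeR test and limma on log2(RPKM + 0.1) called MMP28 against UT in both washed-out groups. Intervals of this kind cover counting error only.

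**Figure D4:**
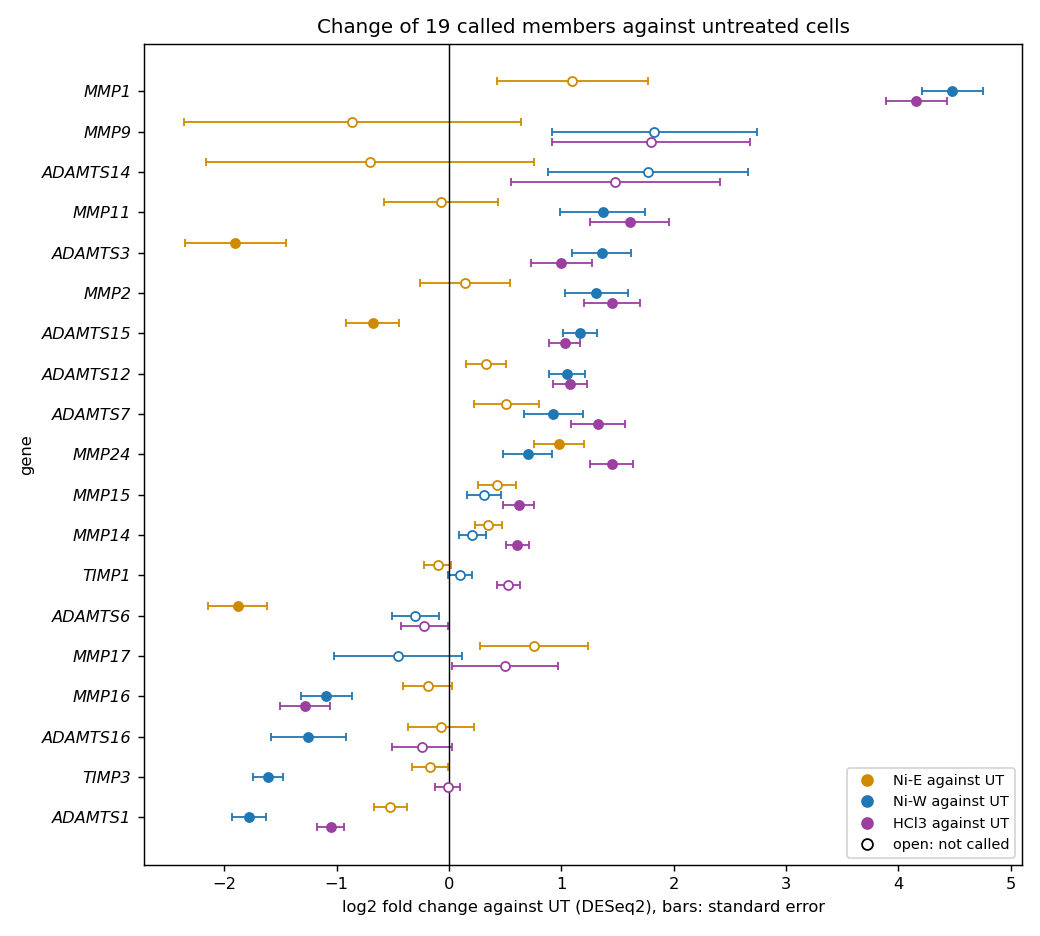
Log2 fold change against UT (horizontal axis, DESeq2, bars: SE) of 19 members called in at least 1 pair, in Ni-E (orange), Ni-W (blue) and HCl3 (purple), with filled points for called changes. ADAMTS2 and ADAMTS9 are left out for having 2 or fewer reads in UT. MMP1 stands at 4.48 in Ni-W and 4.16 in HCl3, ADAMTS3 and ADAMTS15 lie on opposite sides of 0 in Ni-E and in the washed-out groups, and TIMP3 lies at -1.61 in Ni-W and -0.01 in HCl3.

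TIMP3, which binds to the matrix and inhibits MMPs, ADAMTS enzymes and ADAM17 (hg19 chr22:33196802-33259028, plus strand), separated the washed-out groups. Its RPKM was 14.5 and 16.6 for UT, 16.8 and 11.9 for Ni-E, 4.78 and 5.70 for Ni-W and 16.1 and 16.0 for HCl3. Only the Ni-W libraries were low, and the other 3 groups overlapped. The change against UT was -1.61 ± 0.13 in Ni-W (3.04-fold lower, adjusted P = 3.83e-31) and -0.01 ± 0.11 in HCl3 (interval -0.22 to 0.20). Directly compared, HCl3 was higher than Ni-W by 1.60 ± 0.10 (adjusted P = 8.04e-52), and Ni-W was below Ni-E by -1.46 ± 0.16 (adjusted P = 3.8e-18). All 3 calls held without any 1 library. TIMP3 lies inside SYN3, which had no read on the opposite strand. In the 10 Mb window around TIMP3, the median over 102 expressed genes was -0.04 for Ni-W against UT on the log2 scale.

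The other inhibitors moved less. TIMP1 (hg19 chrX:47441690-47446190, plus strand) was read at 99.0 and 93.5 RPKM for UT, 98.8 and 88.0 for Ni-E, 111.8 and 99.3 for Ni-W and 142.6 and 146.8 for HCl3. Both HCl3 libraries lay above the rest. The difference was 0.53 ± 0.10 against UT (1.45-fold, adjusted P = 4.89e-07) and 0.44 ± 0.08 against Ni-W (adjusted P = 6.14e-06), under the 1.5-fold threshold, and 0.62 ± 0.10 against Ni-E (1.53-fold, adjusted P = 1.34e-09), just above it. Without Ni-E replicate 2 the last value was 0.51 and no longer called.

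TIMP2 (hg19 chr17:76849059-76921472, minus strand) was read at 137 and 146 RPKM for UT, 122 and 137 for Ni-E, 158 and 190 for Ni-W and 197 and 191 for HCl3. The washed-out libraries all lay above UT and Ni-E. In HCl3 the difference from UT was 0.40 ± 0.09 (1.32-fold, adjusted P = 4.24e-05) and in Ni-W 0.26 ± 0.11 (adjusted P = 0.0633). Against Ni-E, TIMP2 was higher by 0.57 ± 0.08 in HCl3 (1.49-fold, adjusted P = 1.24e-12) and by 0.43 ± 0.11 in Ni-W (1.35-fold, adjusted P = 0.000208). Both lay below the 1.5-fold threshold, and limma on log2(RPKM + 0.1) called the first. HCl3 and Ni-W differed by 0.14 ± 0.09 and were not told apart (adjusted P = 0.306). TIMP4, the least abundant TIMP (hg19 chr3:12194568-12200851, minus strand), was read at 0.68 and 0.77 for UT, 1.32 and 1.09 for Ni-E, 1.24 and 1.13 for Ni-W and 0.68 and 0.64 for HCl3, and no difference was called in the main test. There HCl3 differed by -0.85 ± 0.39 from Ni-W (adjusted P = 0.124) and by -0.88 ± 0.43 from Ni-E (adjusted P = 0.0981). The edgeR test called TIMP4 lower in HCl3 in both pairs. All 8 libraries in one fit and limma on log2(RPKM + 0.1) called it in HCl3 against Ni-E. Ni-E and Ni-W libraries lay above the UT and HCl3 libraries.

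**Figure D5:**
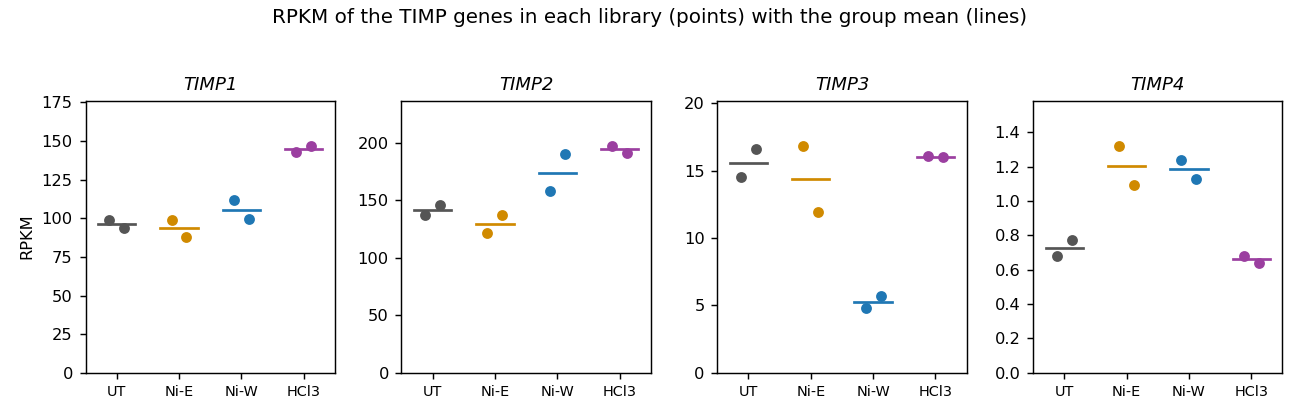
RPKM (vertical axes, each from 0) of the 4 TIMP genes in each library of UT, Ni-E, Ni-W and HCl3 cells, with points for libraries and lines for group means. TIMP3 is low only in Ni-W (4.78 and 5.70), TIMP1 is highest in HCl3, and TIMP2 lies higher in Ni-W and HCl3 than in UT and Ni-E.

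Added over a family, RPKM of the 22 MMP genes came to 30.0 and 28.1 for UT, 37.1 and 37.4 for Ni-E, 43.6 and 42.7 for Ni-W and 51.5 and 51.1 for HCl3. The 4 TIMP genes summed to 251 and 257, 239 and 238, 276 and 296, and 357 and 355. The 19 ADAMTS genes gave 34.6 and 41.3, 30.8 and 26.8, 25.3 and 25.9, and 32.2 and 31.2. The MMP sum was thus highest in HCl3 and the ADAMTS sum in UT, where ADAMTS1 made up most of it. MMP14 was the largest part of the MMP sum, with 16.0 and 15.1 RPKM for UT, 19.7 and 21.6 for Ni-E, 19.1 and 17.7 for Ni-W and 24.5 and 24.8 for HCl3. These sums are descriptions and were not tested.

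The proteoglycan-cleaving ADAMTS genes went in different directions. ADAMTS1 (hg19 chr21:28208606-28217728, minus strand), the most abundant ADAMTS and one that cleaves versican and aggrecan, was read at 25.4 and 32.3 RPKM for UT, 23.6 and 18.2 for Ni-E, 7.51 and 9.74 for Ni-W and 15.2 and 13.8 for HCl3. All 4 groups were apart, in the order UT, Ni-E, HCl3, Ni-W. Against UT it fell by 1.78 in Ni-W on the log2 scale (SE 0.15, adjusted P = 2.79e-30) and by 1.05 in HCl3 (SE 0.12, adjusted P = 1.75e-15), and HCl3 was higher than Ni-W by 0.74 ± 0.12 (adjusted P = 5.13e-08). The first 2 calls held without any 1 library. Without Ni-W replicate 1 the difference between HCl3 and Ni-W was 0.55, below 1.5-fold.

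ADAMTS9 (hg19 chr3:64501331-64673365, minus strand), which cleaves versican and is closely related to ADAMTS20, had no read in UT and Ni-E, 83 and 39 for Ni-W and 23 and 23 for HCl3. Against a floor of 3 reads per library its level in Ni-W was at least 15.4-fold that of UT (adjusted P = 4.38e-06) and that in HCl3 at least 6.09-fold (adjusted P = 0.000662). Against Ni-E the bounds were 17.6-fold and 6.98-fold (adjusted P = 1.76e-06 and 0.000432). The washed-out and the other libraries were fully apart, though the highest RPKM was 0.22. The difference between HCl3 and Ni-W was -1.34 ± 0.50 on the log2 scale (adjusted P = 0.0454), a call that was lost without each library in turn (adjusted P up to 0.554) and with all 8 libraries in one fit. With limma on log2(RPKM + 1), a scale that shrinks changes at such low levels, the ADAMTS9 changes were under 1.5-fold and none was called. The HCl3 call against UT was lost without either HCl3 library (adjusted P up to 0.0683). The Ni-W calls against UT and Ni-E were lost where the replicate number was fitted as a block. ADAMTS9-AS2 on the opposite strand held 0 to 9 reads.

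The aggrecanases ADAMTS4 and ADAMTS5 were low in all groups (0.07 to 0.19 and 0.12 to 0.28 RPKM) and were not called in any pair, and ADAMTS8 did not exceed 17 reads. ADAMTS4 had its lowest values in Ni-W (0.07 in both libraries), with a change of -1.14 ± 0.76 against UT (adjusted P = 0.273).

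ADAMTS7 and ADAMTS12, a pair of related enzymes that cut cartilage oligomeric matrix protein, rose together. ADAMTS12 (hg19 chr5:33527287-33892124, minus strand) was read at 2.01 and 2.33 RPKM for UT, 2.80 and 2.87 for Ni-E, 4.80 and 4.38 for Ni-W and 4.75 and 4.77 for HCl3. It rose against UT by 1.05 ± 0.16 in Ni-W (adjusted P = 3.32e-09) and by 1.08 ± 0.15 in HCl3 (adjusted P = 4.29e-11), and both calls held without any 1 library. Ni-E lay between UT and the washed-out groups, at 0.33 ± 0.18 against UT (adjusted P = 0.267). ADAMTS7 (hg19 chr15:79051545-79103773, minus strand) was read at 0.86 and 0.55 for UT, 1.09 and 1.00 for Ni-E, 1.38 and 1.39 for Ni-W and 1.76 and 1.95 for HCl3. The groups were apart and rose in that order. Its change against UT was 0.93 ± 0.26 in Ni-W (adjusted P = 0.00197), lost without UT replicate 2 or either Ni-W library (adjusted P up to 0.15), and 1.33 ± 0.24 in HCl3 (adjusted P = 3.83e-07), which held without any 1 library. HCl3 was higher than Ni-W by 0.41 ± 0.17, and this difference was not called (adjusted P = 0.0867).

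The windows around ADAMTS7, ADAMTS12 and MMP24 had medians above 0 as well. Of the 70 expressed non-member genes in the 10 Mb window of ADAMTS7, the median log2 fold change against UT was 0.48 in Ni-W and 0.45 in HCl3. It was 0.34 and 0.13 over 32 genes around ADAMTS12, and 0.28 in both over 84 genes around MMP24. Around MMP16, which was lower in both groups, it was -0.18 and -0.35 over 12 genes. The part of these windows in the changes of the 4 members was not tested. Around MMP1 and ADAMTS9, which were higher in both groups, the window medians were below 0. For Ni-W they were -0.04 and -0.08, and HCl3 gave -0.27 and -0.33. For ADAMTS1, ADAMTS3, ADAMTS15, MMP2 and MMP11 the window medians against UT lay between -0.21 and 0.06 for Ni-W and HCl3.

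Besides ADAMTS3, the procollagen proteinases ADAMTS2 and ADAMTS14 were near the limit of detection. ADAMTS2 (hg19 chr5:178577886-178772431, minus strand) had 1 and 1 reads for UT, 8 and 3 for Ni-E, 23 and 13 for Ni-W and 8 and 16 for HCl3. Its rise from UT to Ni-W was called (adjusted P = 0.0278), with a ratio of 36 to 2 reads of 14.6 after scaling to depth (95% counting interval 3.75 to 125), and the call was lost without each library in turn (adjusted P up to 0.368). In HCl3 the ratio was 9.86 (2.45 to 86.1) and was not called (adjusted P = 0.0961). ADAMTS14 (hg19 chr10:72432559-72522195, plus strand) had 8 and 4, 6 and 2, 24 and 24, and 24 and 16 reads in the same order. It was called between Ni-W and Ni-E (2.47 ± 1.00, adjusted P = 0.0366), a call lost without each library in turn (adjusted P up to 0.455).

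ADAMTS16 (hg19 chr5:5140443-5320412, plus strand) was low in Ni-W alone. It was read at 0.74 and 0.86 RPKM for UT, 0.81 and 0.77 for Ni-E, 0.39 and 0.29 for Ni-W and 0.74 and 0.66 for HCl3. The Ni-W libraries stood apart from the other 6. The change was -1.25 ± 0.33 against UT (adjusted P = 0.000934), -1.19 ± 0.33 against Ni-E (adjusted P = 0.00138) and, for HCl3 against Ni-W, 1.01 ± 0.31 (adjusted P = 0.0101). The first call was lost without UT replicate 2 or Ni-W replicate 2 (adjusted P up to 0.124), the second without Ni-E replicate 1 or Ni-W replicate 2 (up to 0.125), and the third without each library in turn (up to 0.382). ADAMTS10, a microfibril-linked relative of ADAMTS6, ADAMTS13, the von Willebrand factor proteinase, and ADAMTS17 held at most 22, 33 and 5 reads and were not called.

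Set against Ni-E rather than UT, Ni-W had 15 of 34 tested members called (10 higher and 5 lower), beside 11.7% and 8.81% of all genes. HCl3 had 12 of 34 called against Ni-E (11 higher and 1 lower), beside 10.4% and 6.78%. The members' medians were 0.39 and 0.60, beside 0.02 and 0.01 over all genes. The share of members called lower in HCl3 (2.94%) was below that of all genes. MMP1, MMP2, MMP9, MMP11, ADAMTS3, ADAMTS6, ADAMTS9, ADAMTS12 and ADAMTS15 were higher and MMP16 lower in each of these pairs, which share the Ni-E libraries. ADAMTS3, ADAMTS6, ADAMTS9 and ADAMTS12 were called in both pairs without any 1 library. Between Ni-W and Ni-E, ADAMTS15 was lost without Ni-W replicate 1 (adjusted P = 0.0574), MMP11 without either Ni-W library (up to 0.195), and MMP2 and MMP16 without Ni-E replicate 1 or Ni-W replicate 1 (up to 0.215 and 0.0826). Between HCl3 and Ni-E, ADAMTS15 was lost without either HCl3 library (adjusted P up to 0.086), and MMP2 and MMP11 without HCl3 replicate 1 (0.055 and 0.0515). The number of members called between Ni-W and Ni-E fell without Ni-E replicate 1 or either Ni-W library, and so did the number of all genes called.

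Between HCl3 and Ni-W, 5 of 32 tested members differed, with 4 higher in HCl3 (TIMP3, ADAMTS16, MMP24 and ADAMTS1) and 1 lower (ADAMTS9). Over all genes, 3.1% were called higher and 1.66% lower. The median of the members was 0.16, beside -0.00. Only the TIMP3 call held without any 1 library. With any 1 library left out, fewer members were called, and fewer of all genes as well. MMP24 was higher in HCl3 by 0.76 ± 0.16 (adjusted P = 3.72e-05), a call lost without either HCl3 library (adjusted P up to 0.0752). MMP14 and TIMP1 differed by 0.40 ± 0.08 and 0.44 ± 0.08, both with an adjusted P value under 0.05 and below 1.5-fold.

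Genes that activate or restrain these enzymes were counted from a list of 17. The list was chosen with earlier results of these data known, so its counts and medians only describe these genes. In HCl3, 9 of 17 tested were called and each of them was higher than in UT, beside 11.1% higher and 3.74% lower of all genes. In Ni-W, 4 of 16 were higher and 2 lower, beside 10.9% and 4.83% of all genes. The list's median log2 fold change was 1.02 in HCl3 and 0.43 in Ni-W, beside 0.01 over all genes. PLAU, the urokinase that turns plasminogen into plasmin, was read at 17.7 and 14.9 RPKM for UT, 23.0 and 24.1 for Ni-E, 35.2 and 32.3 for Ni-W and 43.9 and 46.1 for HCl3. It rose by 1.01 ± 0.13 in Ni-W (adjusted P = 5.2e-14) and 1.40 ± 0.11 in HCl3 (adjusted P = 1.2e-32). TFPI2, a serine proteinase inhibitor of the matrix, rose from 0.09 and 0.13 RPKM to 1.37 and 1.63 for Ni-W (3.96 ± 0.51, adjusted P = 4.42e-13) and 1.72 and 1.52 for HCl3 (4.05 ± 0.50, adjusted P = 1.71e-14).

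In the same list, the proteinase inhibitor SERPINE2, the tissue plasminogen activator PLAT, the urokinase receptor PLAUR, the proteoglycan SPOCK1 and the precursor-cleaving enzyme FURIN were called higher in HCl3 as well, by 0.61 (PLAUR) to 1.26 (SPOCK1). In Ni-W these genes were higher than in UT by 0.24 (PLAUR) to 0.57 (FURIN), below 1.5-fold. All but PLAUR had an adjusted P value under 0.05 there. Directly compared, SERPINE2, PLAT and SPOCK1 were called higher in HCl3 than in Ni-W. PLAUR and FURIN were not, and FURIN differed by 0.09 ± 0.08 (adjusted P = 0.556). PCSK6, a relative of FURIN, was listed at 0.00 RPKM in UT, 0.13 and 0.10 for Ni-W and 0.07 and 0.07 for HCl3 and was called in both. In Ni-W the sheddase ADAM10 rose by 0.77 ± 0.11 (adjusted P = 5.19e-10), and CD44, a surface receptor that binds MMPs, fell by 0.63 (SE 0.12, adjusted P = 2.11e-06). ADAM10 was higher in HCl3 too, by 0.53 ± 0.11 (adjusted P = 1.42e-05), below 1.5-fold. SERPINB2, an inhibitor of urokinase, was lower in Ni-W by -0.95 ± 0.36 (adjusted P = 0.0285). BSG, known to induce MMPs, and the membrane MMP inhibitor RECK were not called against UT (324 to 417 and 2.85 to 4.35 RPKM). In Ni-E, PLAT was higher (0.69 ± 0.15, adjusted P = 9.61e-05) and SPOCK1 lower (-0.82 ± 0.18, adjusted P = 0.000139).

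Of 6 ADAMTS-like genes, which resemble ADAMTS proteins but lack the proteinase domain, 5 were tested. ADAMTSL1 was called lower than UT in all 3 treated groups, at 7.49 and 7.61 RPKM for UT, 5.66 and 3.97 for Ni-E, 2.50 and 2.61 for Ni-W and 4.59 and 5.45 for HCl3. Its log2 fold changes were -1.04 ± 0.15, -1.53 ± 0.12 and -0.66 ± 0.11 (adjusted P = 2.7e-10, 2.63e-32 and 4.35e-08). ADAMTSL3 rose by 1.40 ± 0.22 in Ni-W and 1.51 ± 0.20 in HCl3 (adjusted P = 1.86e-09 and 4.23e-12), and ADAMTSL4 and PAPLN rose in HCl3 by 0.74 ± 0.13 and 0.81 ± 0.21 (adjusted P = 2.56e-07 and 0.000582).

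VCAN, which encodes versican, a proteoglycan cut by ADAMTS1, ADAMTS9 and ADAMTS15, was called higher than UT in each treated group. Its RPKM was 0.04 and 0.08 for UT, 0.43 and 0.34 for Ni-E, 0.27 and 0.22 for Ni-W and 0.34 and 0.35 for HCl3, with log2 fold changes of 2.69 ± 0.50, 2.14 ± 0.52 and 2.63 ± 0.46 (adjusted P = 4.29e-06, 0.000264 and 1.5e-07). The aggrecan and neurocan genes ACAN and NCAN did not exceed 0.01 RPKM, and BCAN, the brevican gene, lay between 0.52 and 1.31. BCAN was not called against UT but was called lower in HCl3 than in Ni-E (-1.03 ± 0.33, adjusted P = 0.00674).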

How the data were processed

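The authors prepared libraries with a TruSeq RNA kit, aligned the sequenced reads to hg19 with STAR 2.4 and removed reads with several alignments, and obtained the deposited read counts per RefSeq gene with BioWardrobe. The deposited RPKM values (reads scaled to gene length and library size, 2 decimals) were made by the authors with BioWardrobe. For some members with few reads they do not follow the counts with 1 fixed gene length. MMP28 had 3 reads and 0.03 RPKM in UT replicate 1, and 14 reads and 0.27 RPKM in Ni-W replicate 1. Folds of RPKM and of counts can therefore differ for such genes. Groups and replicates follow the labels, and 45 members of 25411 genes were chosen by symbol.

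Counts were tested over all genes in R 4.3.3 with DESeq2 1.42.0 (a two-sided Wald test with median-of-ratios scaling, its default filter target of 0.1 and Benjamini-Hochberg adjustment), each pair of groups fitted on its 4 libraries, following the study's methods. Since groups of 2 cannot reach a P value under 0.05 by regrouping, adjusted P values lean on a spread shared across genes. A member was called at an adjusted P value under 0.05 and at least 1.5-fold. The members and the gene lists were chosen with earlier results of these data known. Members called in any pair, the TIMPs and the 5 most abundant members in UT are given with a value for each library, and others by range. Listed non-members are named where called in Ni-W or HCl3 against UT. A gene counted among the 17 activators and inhibitors is not reported here. Values in Ni-E, and those of BSG, RECK, ACAN, NCAN and BCAN, were added after they were seen.

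A fold against a group without reads used 3 reads per library, and ratios of low counts carry exact binomial intervals. Windows are fixed 10 Mb bins holding the member, with non-member genes of a mean normalised count of at least 50. Alternatives were edgeR 4.0.16 (quasi-likelihood), limma 3.58.1 on log2 of RPKM with a pseudocount of 1 or 0.1, TMM, a mean count of at least 10, all 8 libraries in one fit, 2-fold or no fold threshold, a replicate block, removal of trends with GC content and length, and each library left out. The crossed block was added after the data were seen. Scripts were tested on simulated data. Replicates differed by more than sampling noise, so that no library was counted as a repeat deposit.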

Additional observations from a re-analysis of the deposited data

Results flagged for a closer look

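The 5 members that differed directly between HCl3 and Ni-W were looked at again, since the labels give both groups the same treatment. On the log2 scale, HCl3 against Ni-W gave 1.60 for TIMP3, 1.01 for ADAMTS16, 0.76 for MMP24, 0.74 for ADAMTS1 and -1.34 for ADAMTS9. TIMP3 was called without any 1 library and in each other setting tried. The others were lost without at least 1 library. The HCl3 libraries carry experiment numbers 3 and 4 and Ni-W none, so experiment, colony and time without nickel cannot be told apart.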

How the results depend on the processing

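No call of a member turned direction, but 82 values over 39 member and pair combinations, none of them called, had the opposite sign to the main value. Without Ni-E replicate 1, MMP1 in Ni-E against UT went from 1.10 to -0.82, and without Ni-E replicate 2, MMP2 went from 0.14 to -0.52 and ADAMTS10 from 1.05 to -0.61. Over all members and settings, 2921 values kept their side of the thresholds, 173 lost and 57 gained a call. With edgeR the calls gained against UT were ADAMTS4, ADAMTS14, MMP9 and MMP28 in Ni-W. In HCl3 they were ADAMTS5, ADAMTS10, ADAMTS14, MMP9 and MMP28. The number of members called stayed within 1.5 times the main value with edgeR, TMM, a mean count of at least 10, all 8 libraries in one fit, no fold threshold and GC and length trends removed. With limma on log2(RPKM + 1) it was 0 for Ni-E against UT (2 past 1.5-fold at an unadjusted P value under 0.05, where edgeR gave 3 adjusted and 7 unadjusted), 7 for Ni-W against UT, 7 for Ni-W against Ni-E, 1 for HCl3 against Ni-W and 7 for HCl3 against Ni-E. In these pairs limma on log2(RPKM + 1) called 0, 1409, 1989, 247 and 1655 of all genes. The main test called 840, 2484, 3276, 713 and 2734 there. On log2(RPKM + 0.1) the number of members called was 0 for Ni-E against UT (5 unadjusted) and 2 for HCl3 against Ni-W, beside 0 and 267 of all genes. The 2-fold threshold left 2 members for Ni-E against UT and 3 for HCl3 against Ni-W, beside 418 and 369 of all genes. With 1 library left out, and the lone library assumed to vary like the others, the number ranged from 2 to 3 for Ni-E against UT, 9 to 12 for Ni-W against UT, 9 to 13 for HCl3 against UT, 7 to 12 for Ni-W against Ni-E, 2 to 3 for HCl3 against Ni-W and 8 to 13 for HCl3 against Ni-E. In these fits the number of all genes called fell too, except for HCl3 against Ni-E without Ni-E replicate 2. The cause was not tested.

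The replicate suffix is only a number shared between groups, with correlations of same-suffix deviations between -0.159 and 0.222. The replicate block gave 3, 12, 12, 11, 3 and 11 calls for Ni-E, Ni-W and HCl3 against UT, Ni-W against Ni-E, HCl3 against Ni-W and HCl3 against Ni-E. Over all genes it called 491, 2134, 1779, 2748, 455 and 2290. The main test called 840, 2484, 2333, 3276, 713 and 2734 of all genes. With GC and length trends removed too, the block gave 2, 11, 12, 11, 3 and 12 members, beside 402, 2066, 1682, 2335, 451 and 2027 of all genes. With either block fit ADAMTS9 was not called for Ni-W against UT, Ni-W against Ni-E or HCl3 against Ni-W. The crossed block gave 4 for Ni-E against UT, 13 for HCl3 against UT and 11 for Ni-W against Ni-E, again without ADAMTS9 there. Over all genes it called 632, 1880 and 2851. Members with few reads, such as ADAMTS2, ADAMTS14 and MMP9, are limited by depth, and 2 libraries a group limit every value.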
